A study of Mus musculus with 18 samples.

Results

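The proteasome genes were taken as all probe sets annotated to a single gene whose symbol starts with Psma, Psmb, Psmc, Psmd or Psme followed by a digit. This gave 76 probe sets of 43 genes, out of 22626 probe sets and 12393 genes on the array. Of these genes, 41 (74 probe sets) encode parts of the proteasome, its activators or chaperones of its assembly, and they are called subunit genes here. The other 2, *Psmc3ip* and *Psme3ip1*, encode partner proteins that carry a subunit name, and they are kept apart. All 76 probe sets were tested, without a filter. *Psme2*, the partner of *Psme1*, was not followed because its only probe set is annotated to several genes. A gene with several probe sets (19 of the 41) is shown by the one without a cross-hybridization mark and with the largest spread over the arrays, and its other probe sets are given where they behaved otherwise.

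The arrays compared early T cell progenitors of adult and fetal C57BL/6 mice at 3 successive stages, to find how fetal and adult T cell development differ. Early thymic progenitors (ETP) were sorted as lineage negative CD44+CD25-c-kit+ cells, DN2 cells as CD44+CD25+ cells and DN3 cells as CD44 low or intermediate CD25+ cells, and RNA came from 80000 cells of each population. Adult mice were females of 4 to 6 weeks and fetal thymi were labelled E14.5 (the methods give a later day), which made 6 groups with 3 Affymetrix mouse arrays each and 18 arrays in all. Several sorts were pooled for an array, and the labels call the arrays of a group biological replicates where the methods call them technical, so that p-values here measure a spread that may be technical. The authors deposited GCRMA log2 values in which each probe set was centred on its median over the 18 arrays. All values below are on this scale: they compare arrays for one probe set and hold no level, so that no gene can be set above another. Differences were tested with limma over all probe sets, and called means an adjusted p under 0.05 together with a difference of at least 1.8-fold (0.848 log2). In bulk RNA of this kind fewer cells of a type and less RNA per cell cannot be told apart.

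The proteasome degrades proteins that carry ubiquitin chains. Its barrel-shaped core is built of alpha subunits (*Psma* genes), which gate the entrance, and beta subunits (*Psmb* genes), a few of which cut the peptide chain. A cap of ATPases (*Psmc* genes) and non-ATPase subunits (*Psmd* genes) binds, unfolds and feeds in the substrate, and alternative caps are encoded by *Psme* genes. In immune cells, and in many cells after interferon, the catalytic subunits of the constitutive core (*Psmb5*, *Psmb6*, *Psmb7*) are exchanged for the immunoproteasome subunits *Psmb8*, *Psmb9* and *Psmb10*, which changes the peptides made for MHC class I.

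Of 6 markers of T cell progenitors, *Il2ra* (CD25) was higher in DN2 than in ETP by 4.05 log2 for adult and by 5.34 log2 for fetal mice (limma, called for both). *Ptcra* and *Cd3e* were also called higher in DN2 than in ETP at both ages, and *Thy1* in adult cells alone. *Cd44* and *Kit* were not called between these stages, although *Cd44* differed by -2.50 log2 in adult and by -2.03 log2 in fetal mice. From ETP to DN3 *Kit* and *Cd44* were called lower at both ages, by -2.39 and -7.87 log2 for the adult and by -3.24 and -9.35 log2 for the fetal groups. Between ages only *Thy1* of the 6 was called, higher in fetal than in adult ETP. Some arrays went against their labels or stood apart. Adult DN3 replicates 2 and 3, labelled female, held the X-inactivation transcript *Xist* at -11.28 and -11.34 log2 and the Y-linked gene *Uty* at 1.97 and 2.30 log2, against 1.59 and -0.30 log2 in replicate 1. The embryonic globin gene *Hbb-y* was lowest in the array numbered 1 of each fetal group by all 3 of its probe sets. One lay between -0.07 and 0.04 log2 in these arrays and between 2.35 and 5.97 log2 in those numbered 2 and 3. The other 2 probe sets stood at 5.47 and 5.31 log2 in fetal ETP replicate 1, between -0.16 and 0.12 log2 in replicate 1 of fetal DN2 and DN3, and between 9.93 and 11.22 log2 in the arrays numbered 2 and 3. Calls that rest on adult DN3 are therefore given also with replicate 1 as its only array, a fit chosen after seeing the data, in which the lone array is assumed to vary like the other groups.

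The main feature of the proteasome genes was their low position in adult ETP. The median over the 41 subunit genes was -0.56, -0.57 and -0.59 log2 in the 3 adult ETP arrays and between -0.34 and 0.37 log2 in the other 15 arrays. Adult ETP was the lowest of the 6 groups for 31 of the 41 genes (75.6%), and for 59.2% of the 76 probe sets against 36.3% of all probe sets. Fetal ETP exceeded adult ETP in 38 of the 41 genes, counted by their representative probe set whether or not the test passed. Most probe sets of the array lay in this direction too: 93.4% of the 76 were above 0, against 72.5% of all. The median difference of the 76 probe sets was 0.50 log2 against 0.07 log2 over all probe sets. In this comparison limma called 14 of the 76 probe sets higher and 0 lower, and 39 had an unadjusted p under 0.05 (51.3%, against 33.3% of all). Over all probe sets 5.04% were called higher and 3.45% lower. All fetal ETP arrays lay above all adult ETP arrays for 48 of the 76 (63.2%, against 51.7% of all) and below for 0 (8.74% of all). This count takes in nearly flat probe sets, such as one of *Psmb1* with 0.01, -0.04 and -0.04 log2 in adult and 0.04, 0.02 and 0.03 log2 in fetal ETP. The 14 probe sets belong to 12 subunit genes and *Psmc3ip*. At DN2 the median difference was 0.18 log2 (0.03 over all) with 5 probe sets called higher and 1 lower, against a background of 1.87% and 1.57%, and 21 had an unadjusted p under 0.05 (14.4% of all). The arrays did not overlap for 19 probe sets higher in fetal DN2 (25%, against 8.97% of all) and for 1 lower (4.99% of all). At DN3 the median was 0.05 log2 (0.02 over all) with 3 called higher and 0 lower, against 1.6% and 1.16%, and 6 had an unadjusted p under 0.05 (10.2% of all). Here 12 probe sets were higher without overlap (15.8%, against 8.92% of all) and 1 lower (8.62% of all). The ETP count was 8 without fetal ETP replicate 2 and 7 in a fit on both groups alone. The DN3 count was 0 without adult DN3 replicate 2, 1 without adult DN3 replicate 1 or any 1 fetal DN3 array, and 2 with replicate 1 as the only adult DN3 array.

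**Figure D1:**
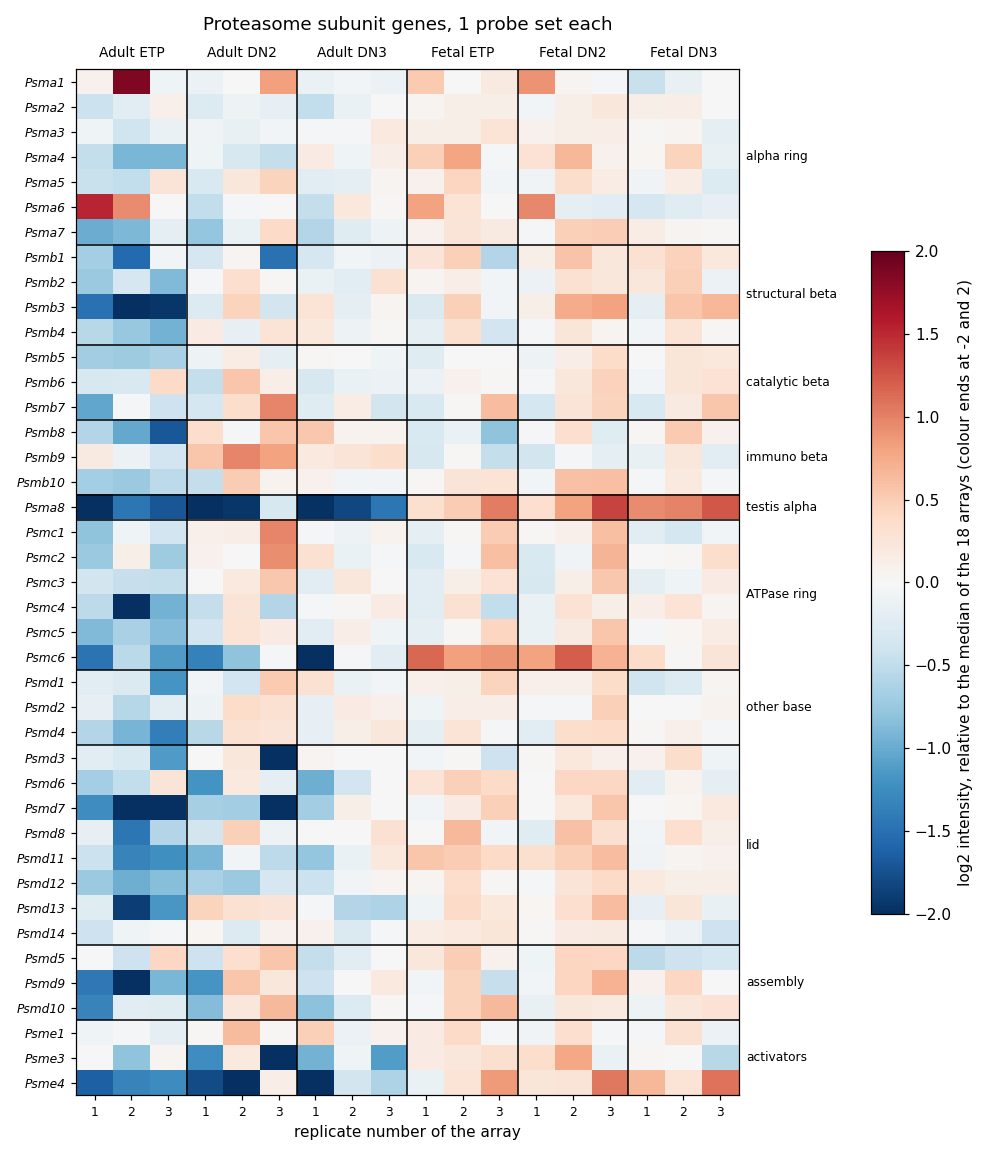
The 41 proteasome subunit genes (rows, ordered by their role in the particle) in the 18 arrays (columns, by group), as centred log2 values of the representative probe set with colours ending at -2 and 2. The 3 adult ETP columns are low for most genes (their medians are -0.56, -0.57 and -0.59 log2), and *Psma8* lies below 0 in all 9 adult arrays.

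The median fetal minus adult difference at ETP was above 0 in each part of the particle. It was 0.37 log2 for the 7 alpha ring genes (1 called) and 0.76 log2 for the 4 structural beta genes (1 called). It was 0.71 log2 for the 6 ATPases (2 called), 0.78 log2 for the 3 other base subunits (1 called), and 0.96 log2 for the 8 lid subunits, of which 4 were called. The 3 assembly chaperones of the cap had a median of 0.95 log2 (1 called), the 3 constitutive catalytic subunits 0.60 log2 and the 3 immunoproteasome subunits 0.69 log2 (0 called in both). Taken over the 34 constitutive genes of core and cap, with the 3 assembly chaperones among them, 32 differences of the representative probe set were above 0 at ETP. Of all probe sets, which were not chosen by their spread, 72.5% were above 0. At ETP 10 of these genes were called higher, *Psmd9* among them, where 5.04% of all probe sets were. At DN2 and at DN3 0 were called (1.87% and 1.6% of all probe sets were called higher), with medians of 0.18 and 0.11 log2. The change of the age difference between stages was called for 0 of the 76 probe sets, so that a difference between stages was not shown. At DN2 *Psmc6* was called by its other 2 probe sets. Of the alpha ring, *Psma1* and *Psma6* were below 0 by their representative probe set (-0.39 and -0.45 log2, adjusted p = 0.492 and 0.361) and above 0 by another (0.67 ± 0.15 and 0.53 ± 0.10 log2, SE; adjusted p = 0.0133 and 0.00306, both under 1.8-fold), so that their direction depends on the probe set.

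**Figure D2:**
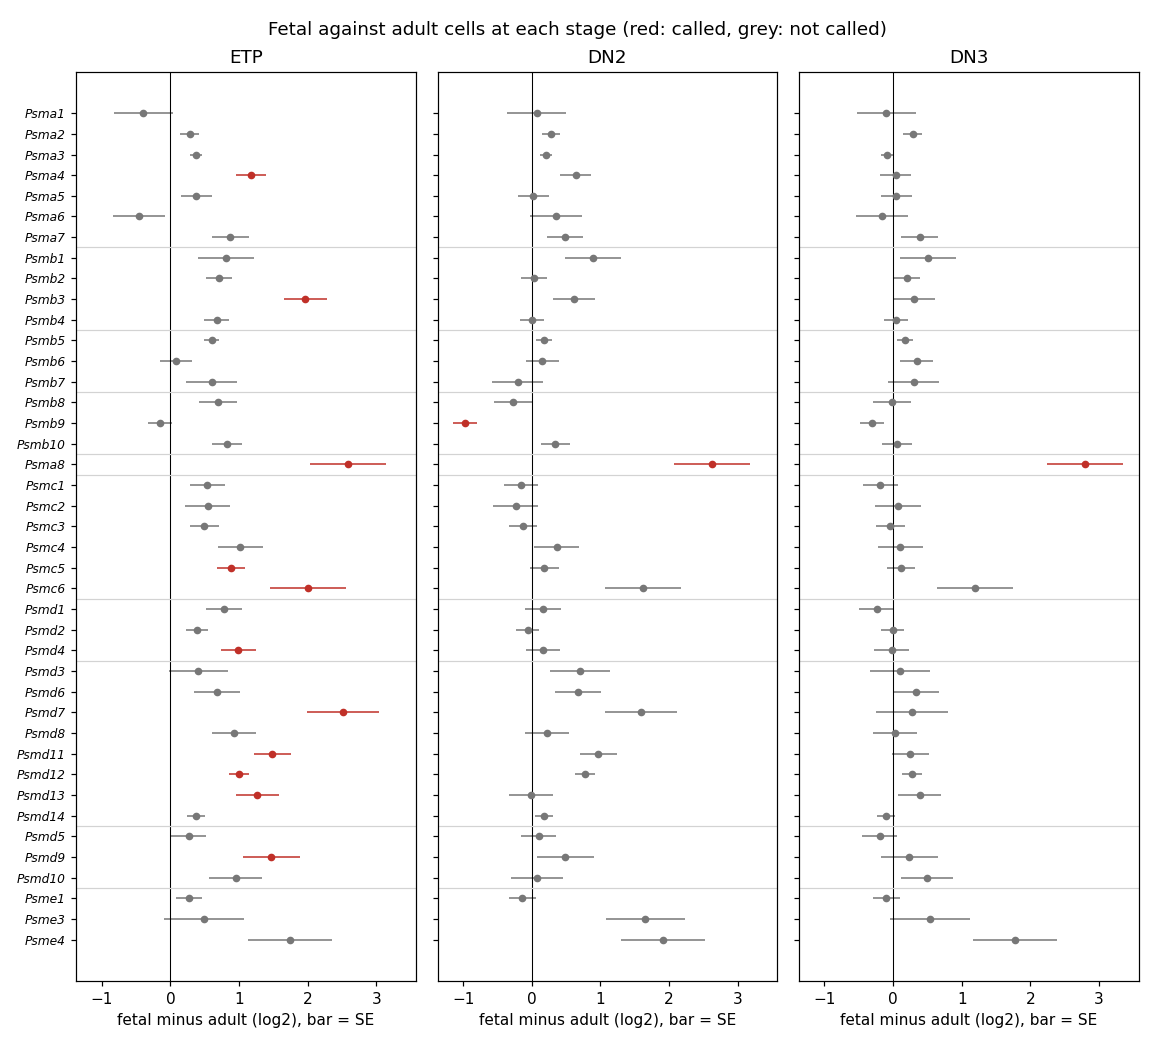
Fetal minus adult difference (log2, points, with the limma standard error as bars) of the representative probe set of each subunit gene in ETP, DN2 and DN3, with called genes in red. At ETP 38 of the 41 points lie above 0. Of all probe sets of the array, which were not chosen by their spread, 72.5% do. At DN3 the points above the fold limit are *Psma8* (2.80 log2), *Psme4* (1.77 log2, called only by probe sets not drawn here) and *Psmc6* (1.19 log2, not called).

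The immunoproteasome genes did not move as a unit, and none of the 3 was called between fetal and adult ETP. *Psmb8* encodes the subunit that takes the place of *Psmb5*. Its values were -0.59, -1.03 and -1.69 in adult ETP, 0.35, -0.02 and 0.55 in adult DN2, and 0.54, 0.07 and 0.07 in adult DN3 (log2). The fetal arrays had -0.30, -0.14 and -0.81 in ETP, -0.02, 0.33 and -0.24 in DN2, and 0.02, 0.52 and 0.09 in DN3 (log2). The adult ETP arrays lay below all adult DN2 and DN3 arrays, and the fetal ETP arrays reached into the range of adult ETP. *Psmb8* was higher in adult DN2 than in adult ETP by 1.40 ± 0.28 log2 (SE; limma adjusted p = 0.00678) and in adult DN3 by 1.33 log2 (adjusted p = 0.00555; 1.64 log2 with replicate 1 as the only DN3 array). Leaving out any 1 array kept both calls, but neither passed in a fit on both groups alone (limma adjusted p = 0.154 and 0.0978). The DN3 call was also lost with the arrays numbered 2 and 3 alone (0.0518). Between ages it differed by 0.69 ± 0.28, -0.27 and -0.01 log2 at ETP, DN2 and DN3 (adjusted p = 0.122, 0.61 and 0.993).

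*Psmb9* encodes the subunit that replaces *Psmb6*, and it was the only subunit gene called lower in fetal cells. It stood at 0.18, -0.11 and -0.39 in adult ETP, 0.55, 0.98 and 0.81 in adult DN2, and 0.19, 0.25 and 0.35 in adult DN3 (log2). In fetal cells it stood at -0.32, 0.03 and -0.48 in ETP, -0.37, -0.03 and -0.18 in DN2, and -0.15, 0.23 and -0.21 in DN3 (log2). All 3 adult DN2 arrays lay above the 15 others. At DN2 the fetal group was lower by 0.97 log2 (-0.97 ± 0.17, SE; limma adjusted p = 0.00584), a call that leaving out any 1 array kept (highest adjusted p = 0.0251) and that did not pass in a fit on the arrays of both groups alone (adjusted p = 0.0855). At ETP and DN3 the differences were -0.15 and -0.31 log2 (adjusted p = 0.502 and 0.677). The change of the age difference from ETP to DN2 (-0.82 ± 0.24 log2, adjusted p = 0.249) and from DN2 to DN3 (0.67 ± 0.24 log2, adjusted p = 0.512) did not pass, so that a difference between stages was not shown. In adult cells *Psmb9* was higher in DN2 than in ETP by 0.89 ± 0.17 log2 (adjusted p = 0.00637), which fell under 1.8-fold without adult DN2 replicate 2 (0.79 log2) or adult ETP replicate 3 (0.74 log2).

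*Psmb10*, which replaces *Psmb7*, had the adult ETP arrays at the bottom. It stood at -0.68, -0.74 and -0.53 in adult ETP, -0.48, 0.51 and 0.07 in adult DN2, and 0.09, -0.05 and -0.06 in adult DN3 (log2). The fetal values were 0.02, 0.25 and 0.27 in ETP, -0.06, 0.59 and 0.60 in DN2, and -0.04, 0.19 and -0.02 in DN3 (log2). The ETP groups did not overlap, and fetal ETP was higher by 0.83 ± 0.21 log2 (SE; limma adjusted p = 0.0257), just under 1.8-fold. At DN2 and DN3 the differences were 0.35 and 0.05 log2 (adjusted p = 0.575 for DN2), with overlapping groups.

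The constitutive counterparts gave no called difference between ages. *Psmb5*, the chymotrypsin-like subunit, stood at -0.69, -0.71 and -0.65 in adult ETP, -0.10, 0.15 and -0.18 in adult DN2, and 0.02, 0.01 and -0.08 in adult DN3 (log2). Fetal arrays gave -0.25, 0.01 and -0.01 in ETP, -0.10, 0.14 and 0.36 in DN2, and 0.01, 0.24 and 0.21 in DN3 (log2). The adult ETP arrays lay below all others, and the fetal excess at ETP of 0.60 ± 0.12 log2 (SE) passed limma (adjusted p = 0.00455) but not the fold limit. *Psmb6*, the caspase-like subunit, stood at -0.32, -0.31 and 0.38 in adult ETP, -0.47, 0.55 and 0.13 in adult DN2, and -0.32, -0.13 and -0.12 in adult DN3 (log2). The fetal groups held -0.11, 0.08 and 0.02 in ETP, -0.02, 0.23 and 0.46 in DN2, and -0.06, 0.24 and 0.29 in DN3 (log2), and fetal and adult ETP overlapped (0.08 log2, adjusted p = 0.808). *Psmb7*, the trypsin-like subunit, had -1.04, -0.02 and -0.42 in adult ETP, -0.35, 0.35 and 0.97 in adult DN2, and -0.25, 0.15 and -0.36 in adult DN3 (log2). In fetal cells it had -0.31, 0.02 and 0.61 in ETP, -0.35, 0.25 and 0.44 in DN2, and -0.30, 0.18 and 0.56 in DN3 (log2), again with overlapping ETP groups (0.60 log2, adjusted p = 0.21). Within an array, the centred value of *Psmb9* minus that of *Psmb6* was 1.03, 0.42 and 0.68 log2 in adult DN2 and -0.35, -0.26 and -0.65 log2 in fetal DN2. It was 0.51, 0.38 and 0.47 log2 in adult DN3 and -0.09, -0.01 and -0.49 log2 in fetal DN3, whereas the ETP groups overlapped, with 0.51, 0.20 and -0.77 log2 in adult and -0.21, -0.05 and -0.51 log2 in fetal cells. The same difference of *Psmb10* and *Psmb7* at DN2 was -0.13, 0.16 and -0.89 log2 for adult and 0.29, 0.34 and 0.16 log2 for fetal arrays, and that of *Psmb8* and *Psmb5* was 0.45, -0.17 and 0.72 log2 for adult and 0.08, 0.19 and -0.60 log2 for fetal arrays, so that both overlapped. These differences of a pair of genes are given as a description and were not tested.

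*Psme1* encodes a subunit of PA28, a cap that interferon induces. Its values were -0.09, -0.03 and -0.18 in adult ETP, 0.02, 0.63 and 0.02 in adult DN2, and 0.48, -0.12 and 0.09 in adult DN3 (log2). In fetal cells the arrays read 0.17, 0.38 and -0.04 in ETP, -0.07, 0.34 and -0.02 in DN2, and -0.04, 0.30 and -0.11 in DN3 (log2). The groups overlapped at each stage, and the fetal minus adult differences were 0.27, -0.14 and -0.10 log2 at ETP, DN2 and DN3 (limma adjusted p = 0.283 at ETP).

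**Figure D3:**
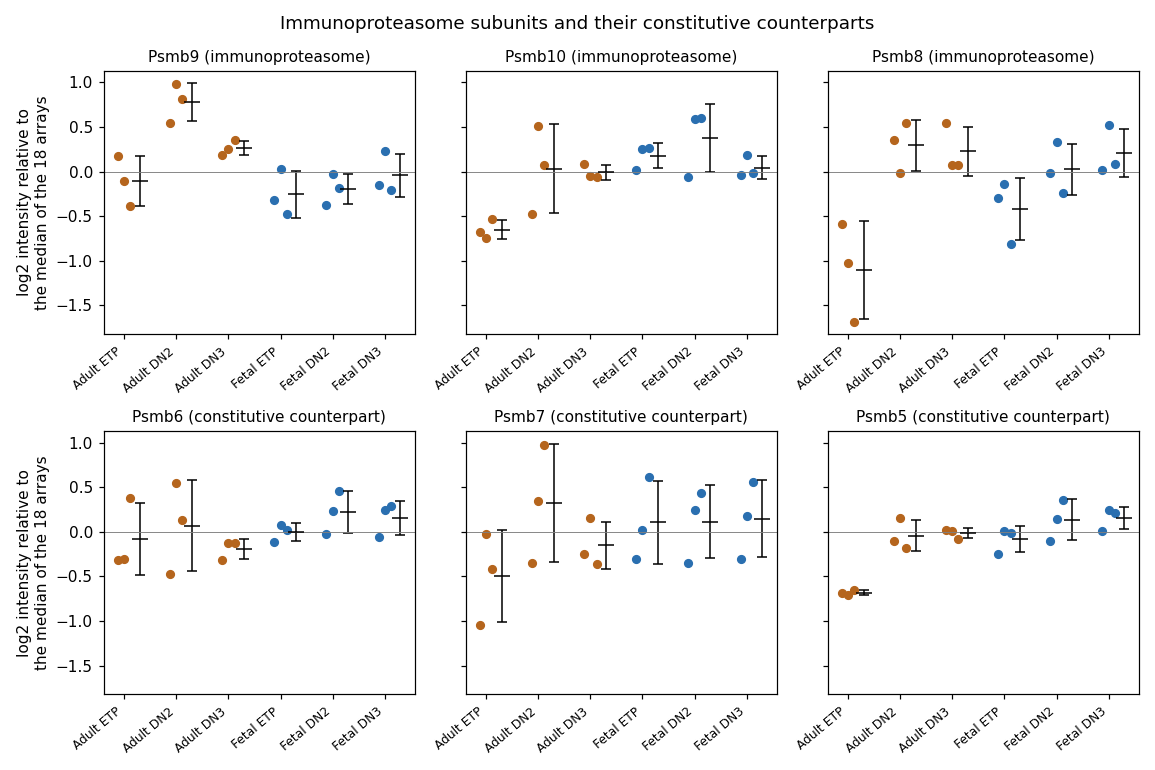
Centred log2 values of *Psmb9*, *Psmb10* and *Psmb8* and of the constitutive subunits they replace (*Psmb6*, *Psmb7*, *Psmb5*) in the 18 arrays by group (points, 1 per array, with mean ± SD of the 3 arrays). *Psmb9* lies at 0.55, 0.98 and 0.81 log2 in adult DN2, above every other array, whereas *Psmb8*, *Psmb10* and *Psmb5* are lowest in adult ETP.

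*Psmb9* and *Psmb8* lie close together on chromosome 17 in the MHC, on opposite strands, with *Tap1* between them and *Tap2* beside *Psmb8*. Their promoters are shown because both genes rose from adult ETP to adult DN2 and are textbook targets of interferon. They were taken from RefSeq (GRCm38.p6), 250 bases before to 50 bases after the start, as chr17:34187281-34187580 (minus strand) for *Psmb9* and chr17:34197945-34198244 (plus strand) for *Psmb8*. Capitals mark a match to a motif searched on both strands.
Psmb9: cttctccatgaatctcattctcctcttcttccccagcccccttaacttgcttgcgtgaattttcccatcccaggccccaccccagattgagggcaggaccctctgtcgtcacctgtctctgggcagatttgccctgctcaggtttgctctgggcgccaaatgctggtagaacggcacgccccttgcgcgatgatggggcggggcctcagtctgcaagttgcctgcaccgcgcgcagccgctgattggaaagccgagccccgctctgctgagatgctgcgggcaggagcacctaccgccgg
Psmb8: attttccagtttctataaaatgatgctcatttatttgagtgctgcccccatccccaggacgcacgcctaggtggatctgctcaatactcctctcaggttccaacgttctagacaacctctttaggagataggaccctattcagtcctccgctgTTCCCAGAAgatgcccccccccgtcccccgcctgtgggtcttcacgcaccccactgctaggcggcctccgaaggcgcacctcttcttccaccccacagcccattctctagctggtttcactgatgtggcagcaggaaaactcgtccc
The motifs were the interferon-stimulated response element (GAAA, any 2 bases and GAAA), the interferon gamma activated site (TTCNNNGAA) and the core of the antioxidant response element (TGACNNNGC), which occur in 3.44%, 8.3% and 12.4% of 32851 promoters of this length. The 36 promoters of the 34 subunit genes in the RefSeq table held them 4, 2 and 6 times. The *Psmb8* window holds an interferon gamma activated site at positions -97 to -89, with the start base as 0, and the *Psmb9* window holds none of the 3 motifs. A match is a description of letters and says nothing of binding.

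Among the structural beta subunits *Psmb3* had the widest difference. The probe set stood at -1.49, -2.31 and -1.95 in adult ETP, -0.27, 0.44 and -0.36 in adult DN2, and 0.27, -0.19 and 0.05 in adult DN3 (log2). In fetal cells it stood at -0.29, 0.48 and -0.05 in ETP, 0.11, 0.74 and 0.81 in DN2, and -0.18, 0.55 and 0.67 in DN3 (log2). The 3 adult ETP arrays lay below the 15 others. Fetal ETP exceeded adult ETP by 1.97 ± 0.31 log2 (SE; limma adjusted p = 0.00126), adult DN2 exceeded adult ETP by 1.85 log2 (adjusted p = 0.00224) and adult DN3 exceeded it by 1.96 log2 (adjusted p = 0.000796; 2.19 log2 and 0.0102 with replicate 1 as the only DN3 array). All 3 calls were kept when any 1 array was left out, but that of adult DN2 did not pass in a fit on both groups alone (limma adjusted p = 0.0784). A second *Psmb3* probe set was called in none of these comparisons (0.26, 0.14 and 0.17 log2). The *Psmb3* promoter (GRCm38.p6, chr11:97703184-97703483, plus strand, RefSeq) is shown because *Psmb3* changed most among the beta subunits. It holds an interferon-stimulated response element, in capitals, at positions -163 to -154 from the start base, and the same motif is found in the windows of *Psmd4*, *Psmd9* and *Psme1*.
Psmb3: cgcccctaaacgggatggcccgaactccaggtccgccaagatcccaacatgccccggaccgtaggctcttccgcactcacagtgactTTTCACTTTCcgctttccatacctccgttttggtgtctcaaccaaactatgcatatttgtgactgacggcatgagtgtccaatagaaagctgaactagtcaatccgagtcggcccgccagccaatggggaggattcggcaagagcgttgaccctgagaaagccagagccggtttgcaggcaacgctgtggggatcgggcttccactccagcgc

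In the cap, *Psmd4*, a receptor for ubiquitin chains, was called in 3 comparisons. It stood at -0.58, -0.93 and -1.39 in adult ETP, -0.55, 0.31 and 0.25 in adult DN2, and -0.17, 0.11 and 0.22 in adult DN3 (log2). The fetal arrays stood at -0.19, 0.28 and -0.03 in ETP, -0.23, 0.35 and 0.37 in DN2, and 0.03, 0.10 and -0.03 in DN3 (log2). The adult ETP arrays lay below the fetal ETP arrays and, by a narrow margin, below the adult DN2 arrays. The differences were 0.99 ± 0.25 log2 for fetal against adult ETP (SE; limma adjusted p = 0.0225), 0.97 log2 for adult DN2 against ETP (0.0316) and 1.02 log2 for adult DN3 against ETP (0.0156). The first call was lost without adult ETP replicate 2 or 3 or fetal ETP replicate 2 (adjusted p up to 0.092, lowest difference 0.78 log2), the second without adult ETP or adult DN2 replicates 2 or 3 (up to 0.129), and the third without adult DN3 replicate 2 or 3 or adult ETP replicate 3 (up to 0.0721). With replicate 1 as the only adult DN3 array the third was 0.80 log2 (adjusted p = 0.285). The other *Psmd4* probe sets (2) were called in none of them, with 0.35 and 0.05 log2 between ETP groups (limma adjusted p = 0.182 and 0.365), 0.34 and 0.09 log2 for adult DN2 against ETP, and 0.31 and 0.01 log2 for adult DN3 against ETP. The latter of these probe sets spanned only 0.24 log2 over the 18 arrays.

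*Psmd7*, which encodes a lid subunit paired with the deubiquitinating enzyme of the lid, spread widely in adult cells. Its values were -1.25, -3.27 and -2.43 in adult ETP, -0.66, -0.69 and -2.64 in adult DN2, and -0.70, 0.11 and 0.00 in adult DN3 (log2). The 9 fetal arrays kept within a narrow band, with -0.05, 0.17 and 0.47 in ETP, 0.00, 0.21 and 0.56 in DN2, and 0.00, 0.04 and 0.19 in DN3 (log2). All adult ETP arrays lay below the fetal arrays and below adult DN3, and adult DN2 replicate 3 lay among them. Fetal ETP was higher by 2.52 ± 0.52 log2 (SE; limma adjusted p = 0.00761; kept without any 1 array, but 0.077 in a fit on both groups alone), and adult DN3 exceeded adult ETP by 2.12 log2 (adjusted p = 0.0161). The latter was lost without adult DN3 or adult ETP replicates 2 or 3 (adjusted p up to 0.0713) and was 1.62 log2 with replicate 1 as the only DN3 array (adjusted p = 0.306). The other *Psmd7* probe sets (2) spanned less than 0.3 log2 over the 18 arrays, as did 10 of the 76 probe sets in all (13.2%, against 31.2% of all probe sets).

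*Psmc6* encodes an ATPase of the cap and was called higher in fetal ETP and DN2 and not in DN3. The probe set of the largest spread stood at -1.47, -0.54 and -1.14 in adult ETP, -1.35, -0.80 and -0.02 in adult DN2, and -2.66, -0.03 and -0.22 in adult DN3 (log2). In fetal cells it stood at 1.15, 0.82 and 0.88 in ETP, 0.80, 1.21 and 0.70 in DN2, and 0.37, 0.02 and 0.26 in DN3 (log2). All fetal ETP arrays lay above all adult ETP arrays, with a difference of 2.01 ± 0.55 log2 (SE; limma adjusted p = 0.0336) that was lost without any 1 of the fetal ETP arrays or adult ETP replicates 1 or 3 (adjusted p up to 0.107). By this probe set the fetal excess was 1.63 log2 at DN2 (adjusted p = 0.143) and 1.19 ± 0.55 log2 at DN3, where the groups did not overlap and the test did not pass (adjusted p = 0.493). A second probe set, marked for possible cross-hybridization, was tighter, with -0.24, 0.00 and -0.23 in adult ETP, -0.03, -0.67 and -0.11 in adult DN2, and -0.02, -0.06 and 0.17 in adult DN3 (log2). The fetal side was 0.77, 0.63 and 0.75 in ETP, 0.59, 0.83 and 0.72 in DN2, and -0.04, 0.21 and 0.00 in DN3 (log2). Here fetal cells exceeded adult cells without overlap by 0.87 ± 0.14 log2 at ETP (adjusted p = 0.00155) and 0.98 log2 at DN2 (0.00123), and the DN3 groups overlapped. These calls fell under 1.8-fold without adult ETP replicate 1 or 3 or fetal ETP replicate 1 (0.83 log2 at the lowest) and without adult DN2 replicate 2 (0.78 log2). The third probe set was called at DN2 only (0.85 log2, adjusted p = 0.0491), a call lost without adult DN2 replicate 2 or 3 or any fetal DN2 array (adjusted p up to 0.2), and at DN3 it differed by -0.01 log2.

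*Psmd9*, an assembly chaperone of the cap, was higher in fetal than in adult ETP by 1.47 ± 0.42 log2 (SE; limma adjusted p = 0.0399), and adult DN3 exceeded adult ETP by 1.42 log2 (adjusted p = 0.0406). Its arrays were -1.43, -2.13 and -0.92 in adult ETP, -1.18, 0.55 and 0.23 in adult DN2, and -0.42, 0.01 and 0.19 in adult DN3 (log2). The fetal arrays were -0.05, 0.45 and -0.46 in ETP, -0.05, 0.43 and 0.70 in DN2, and 0.09, 0.41 and -0.01 in DN3 (log2). The ETP groups did not overlap, but the first call was lost without adult or fetal ETP replicates 1 or 2 (adjusted p up to 0.153) and the second without any adult DN3 array or adult ETP replicates 1 or 2 (up to 0.161; 1.07 log2 and 0.449 with replicate 1 as the only DN3 array). A second *Psmd9* probe set, which spanned only 0.11 log2 over the 18 arrays, differed by 0.05 and 0.01 log2 in these comparisons and was not called.

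The remaining subunit genes called higher in fetal ETP were the alpha ring gene *Psma4* (1.17 log2, limma adjusted p = 0.00428), the ATPase gene *Psmc5* (0.89 log2, 0.0142) and the lid genes *Psmd11* (1.49 log2, 0.00343), *Psmd12* (1.00 log2, 0.000692) and *Psmd13* (1.27 log2, 0.0212). The calls of *Psma4*, *Psmd11* and *Psmd12* were kept without any 1 array, but that of *Psma4* did not pass in a fit on both groups alone (limma adjusted p = 0.0773). That of *Psmc5* was lost without adult ETP replicate 1 or fetal ETP replicate 3 (highest adjusted p = 0.0565, lowest difference 0.71 log2), and that of *Psmd13* without adult or fetal ETP replicates 2 or 3 (highest adjusted p = 0.0787). For *Psmd11* 1 of 6 probe sets was called and the 6 ranged from -0.15 to 1.49 log2, 2 of them with a span under 0.3 log2 over all arrays. A second *Psmd13* probe set differed by 0.83 log2 (adjusted p = 0.0429), under 1.8-fold.

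At all 3 stages the subunit genes called higher in fetal cells included *Psma8* and *Psme4*, and at DN3 no other was called. *Psma8* encodes an alternative alpha subunit known from the testis, where it takes the place of *Psma7* in germ cells. Its values were -2.75, -1.45 and -1.71 in adult ETP, -3.15, -1.94 and -0.32 in adult DN2, and -1.97, -1.82 and -1.44 in adult DN3 (log2). The fetal values were 0.32, 0.50 and 1.02 in ETP, 0.33, 0.80 and 1.35 in DN2, and 0.95, 0.99 and 1.24 in DN3 (log2). Every fetal array lay above every adult array. Fetal cells were higher by 2.59, 2.63 and 2.80 log2 at ETP, DN2 and DN3 (± 0.55 each, SE), that is 6.01-, 6.2- and 6.95-fold (limma adjusted p = 0.00883, 0.0165 and 0.0119). The ETP call was kept without any 1 array. The DN2 call was lost without fetal DN2 replicate 2 or 3 (adjusted p up to 0.0702), and the DN3 call without fetal DN3 replicate 3 or either of adult DN3 replicates 1 and 2 (up to 0.0526) and with replicate 1 as the only adult DN3 array (3.02 log2, adjusted p = 0.0703).

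*Psme4* encodes PA200, a cap that opens the core without ubiquitin and is known for the degradation of acetylated histones, also in male germ cells. A probe set of it stood at -0.04, -1.27 and -1.26 in adult ETP, -1.05, -1.34 and -0.68 in adult DN2, and -0.98, -0.56 and -0.48 in adult DN3 (log2). In fetal cells it stood at 0.27, 0.22 and 0.04 in ETP, 0.62, 0.27 and 0.51 in DN2, and 0.63, 0.66 and 0.50 in DN3 (log2). Adult and fetal arrays did not overlap at any stage. The fetal excess was 1.03 ± 0.28 log2 at ETP (SE; limma adjusted p = 0.0288), 1.49 log2 at DN2 (0.00758) and 1.27 log2 at DN3 (0.0218; 1.57 log2 and 0.0471 with replicate 1 as the only adult DN3 array). The DN2 call was kept without any 1 array but did not pass in a fit on both groups alone (limma adjusted p = 0.0641). The ETP call was lost without adult ETP replicates 2 or 3 or any fetal ETP array (adjusted p up to 0.117), and the DN3 call without adult DN3 replicates 1 or 2 or any fetal DN3 array (up to 0.1). A second probe set, marked for possible cross-hybridization, gave 0.00, -1.12 and -0.80 in adult ETP, -1.04, -1.31 and -0.80 in adult DN2, and -0.60, -0.65 and -0.38 in adult DN3 (log2). Its fetal arrays gave 0.27, 0.33 and 0.00 in ETP, 0.66, 0.43 and 0.59 in DN2, and 0.71, 0.67 and 0.40 in DN3 (log2). It differed by 0.84 log2 at ETP (adjusted p = 0.0308, just under 1.8-fold), by 1.61 ± 0.23 log2 at DN2 (0.00101, kept without any 1 array) and by 1.14 log2 at DN3 (0.012). Its DN3 call was lost without adult DN3 replicate 2 or either of fetal DN3 replicates 1 and 2 (adjusted p up to 0.0596) and with replicate 1 as the only adult DN3 array (1.20 log2, 0.0775). The third, with the largest spread, had -1.64, -1.33 and -1.26 in adult ETP, -1.79, -2.51 and 0.13 in adult DN2, and -2.30, -0.36 and -0.61 in adult DN3 (log2). Fetal cells had -0.13, 0.27 and 0.85 in ETP, 0.24, 0.25 and 1.06 in DN2, and 0.67, 0.28 and 1.09 in DN3 (log2). None of its 3 differences between ages was called, with 1.74 log2 for ETP, 1.91 log2 for DN2 and 1.77 log2 for DN3 (limma adjusted p = 0.0873, 0.119 and 0.218). The *Psme4* promoter (GRCm38.p6, chr11:30771525-30771824, plus strand, RefSeq) is shown for the activator gene that differed at all stages. It holds a match to the core of the antioxidant response element, in capitals, at positions -7 to 1 from the start base.
Psme4: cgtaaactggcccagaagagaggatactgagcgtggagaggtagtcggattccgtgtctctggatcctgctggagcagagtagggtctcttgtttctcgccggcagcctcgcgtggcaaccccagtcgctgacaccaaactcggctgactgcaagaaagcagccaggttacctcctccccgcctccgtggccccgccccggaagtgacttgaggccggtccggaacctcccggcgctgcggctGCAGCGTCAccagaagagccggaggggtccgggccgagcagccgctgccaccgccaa

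**Figure D4:**
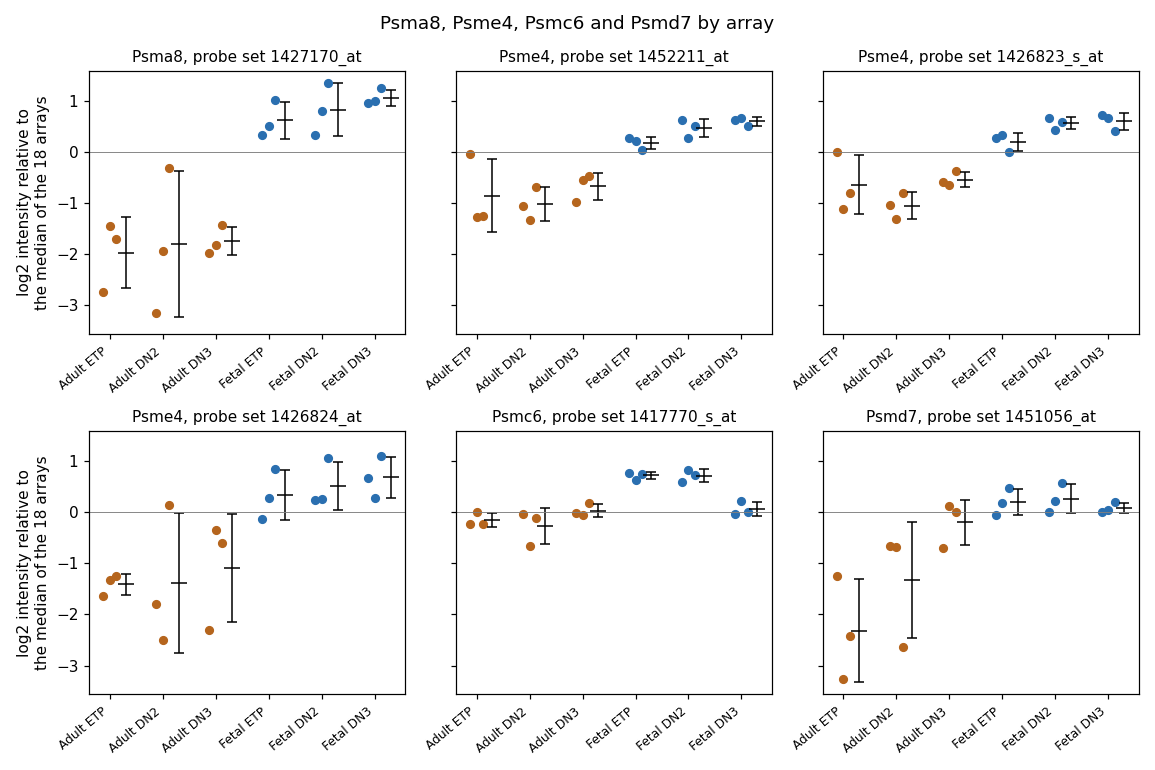
Centred log2 values by array and group (points, 1 per array, with mean ± SD of the 3 arrays) for *Psma8*, the 3 probe sets of *Psme4*, *Psmc6* (the probe set marked for cross-hybridization) and *Psmd7*. For *Psma8* the 9 fetal arrays (0.32 to 1.35 log2) lie above the 9 adult arrays (-3.15 to -0.32 log2). For the *Psmc6* probe set drawn here, fetal and adult arrays are apart in ETP and DN2 and overlap in DN3.

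*Psmc3ip*, which matches the symbol pattern but encodes a partner of the meiotic recombinases and no subunit, also differed at ETP. It stood at -2.44, -1.17 and -1.18 in adult ETP, 0.55, 0.14 and -0.11 in adult DN2, and -1.46, -0.23 and 0.26 in adult DN3 (log2). In fetal cells it stood at 0.31, 0.53 and -0.07 in ETP, 0.07, 1.01 and 0.56 in DN2, and -0.12, 0.18 and -0.26 in DN3 (log2). Fetal ETP was higher by 1.85 ± 0.43 log2 (SE; limma adjusted p = 0.0144; 0.0588 without fetal ETP replicate 2), and adult DN2 was higher than adult ETP by 1.79 log2 (adjusted p = 0.0218; lost without adult DN2 or ETP replicate 1, up to 0.077). The ETP groups did not overlap, and *Psme3ip1* was called in no comparison.

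From adult ETP to DN2 limma called 8 of the 76 probe sets higher and 0 lower (2.96% and 3.11% of all probe sets), and 24 had an unadjusted p under 0.05 (18.6% of all). The 8 belong to *Psmb3*, *Psmb4*, *Psmb8*, *Psmb9*, *Psmd4*, *Psmc3ip* and, with 2 probe sets, *Psmd13*. The lid gene *Psmd13* rose by 1.43 log2 (limma adjusted p = 0.0134; kept without any 1 array) and by 0.92 log2 in its other probe set (0.0337; lost without any adult DN2 array or adult ETP replicate 2, up to 0.0887), and the core gene *Psmb4* by 0.85 log2 (adjusted p = 0.0087; under 1.8-fold without adult DN2 replicate 1 or 3 or adult ETP replicate 3, 0.75 log2 at the lowest). A second *Psmb4* probe set differed by 0.00 log2. In a fit on both groups alone none of the 8 calls passed. The median difference was 0.16 log2 (0.01 over all probe sets). For adult DN3 against ETP, 6 were called higher and 0 lower (5.56% and 5.2% of all), those of *Psmb3*, *Psmb8*, *Psmc4*, *Psmd4*, *Psmd7* and *Psmd9*, with a median of 0.22 log2 (0.00 over all), and 24 had an unadjusted p under 0.05 (22.7% of all). This count was 2 without adult DN3 replicate 3, 3 without adult ETP replicate 2, 10 without adult ETP replicate 1, and 4 in both directions together with replicate 1 as the only DN3 array. The ATPase gene *Psmc4* rose by 1.22 log2 (adjusted p = 0.0259), a call lost without adult ETP replicate 2 or any 1 adult DN3 array (up to 0.0836) and with replicate 1 as the only DN3 array (1.15 log2, 0.244), and its second probe set differed by 0.32 log2 (adjusted p = 0.404). Both comparisons share the adult ETP arrays with each other and with the comparison of fetal and adult ETP.

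Between adult DN2 and DN3, 0 of the 76 were called (limma; 7 at an unadjusted p under 0.05, against 10.9% of all; 0.636% of all probe sets called higher and 0.292% lower), or 1 with replicate 1 as the only DN3 array. In fetal cells 0 were called from ETP to DN2 (0 at an unadjusted p under 0.05, against 5.06% of all; 0.415% and 0.557% called), from DN2 to DN3 (5 unadjusted, against 9.17%; 1.63% and 0.84% called) or from ETP to DN3 (7 unadjusted, against 15.9%; 2.69% and 2.76% called). The second *Psmc6* probe set passed the adjusted p, but not the fold limit, in both fetal comparisons with DN3, where it was lower. Among the fetal differences from ETP to DN3, 21 of the 76 had all DN3 arrays below all ETP arrays and 4 the reverse (27.6% and 5.26%, against 19.9% and 8.83% of all probe sets), with *Psmb8* among the 4.

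The change of the age difference between stages, tested as an interaction, was called for 0 of the 76 probe sets in each of the 3 pairs of stages (0.796%, 0.548% and 2.49% of all were called from ETP to DN2, DN2 to DN3 and ETP to DN3). At an unadjusted p under 0.05 there were 14, 7 and 19 of the 76 (7.27%, 6.22% and 12.5% of all), and 2 passed the adjusted p alone (2.64% of all), those of *Psma6* and *Psmc6* from ETP to DN3. Neither passed with replicate 1 as the only adult DN3 array (adjusted p = 0.285 and 0.161). From ETP to DN2, 0 passed the adjusted p, so that for no proteasome probe set was the age difference shown to change between these stages, or the change between stages shown to differ between adult and fetal cells. By the moderated F test over the 6 groups with the fold limit, 22 of the 76 probe sets were regulated (28.9%, against 16.8% of all).

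Some genes that work with the proteasome also differed between ages. Of all probe sets, 5.04% were called higher in fetal ETP, and 3.45%, 1.57% and 1.16% lower in fetal ETP, DN2 and DN3. Of 16 measured assembly and associated factors, 3 were higher in fetal than in adult ETP (limma): the core chaperones *Psmg1* (1.02 log2) and *Psmg2* (1.64 log2) and the deubiquitinating enzyme *Usp14* (1.20 log2). *Pomp*, the maturation chaperone of the core, differed by 0.93 log2 (adjusted p = 0.0964), and *Nfe2l1*, the transcription factor that induces proteasome genes when the proteasome is blocked, by -0.46 log2 (adjusted p = 0.107). Of 10 measured genes of MHC class I presentation, 3 were lower and 1 higher in fetal ETP, 3 lower in fetal DN2 and 2 lower in fetal DN3. *Tap1*, the peptide transporter gene next to *Psmb9*, was lower in fetal cells at ETP (-1.56 log2, adjusted p = 0.00353) and DN2 (-1.69 log2, adjusted p = 0.00416), and *Tap2*, next to *Psmb8*, differed by 0.25, -0.58 and 0.22 log2 and was not called. Of the class I genes themselves, *H2-K1* was lower at ETP and DN2 (-1.78 and -2.86 log2) and *H2-D1* at all 3 stages (-2.53, -3.42 and -3.00 log2), which are families of near-identical genes whose probe sets may share transcripts.

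Other gene groups also differed between these samples. Their counts stand beside the shares of all probe sets called lower in fetal cells (3.45%, 1.57% and 1.16% at ETP, DN2 and DN3). The shares called higher were 5.04% in fetal against adult ETP and 2.96% in adult DN2 against ETP. Of 14 measured interferon response genes, limma called 8 lower in fetal cells at the ETP stage, 7 at DN2 and 3 at DN3, and their mean over the adult groups, from ETP to DN3, was 1.22, 0.53 and 0.34 log2. The fetal means, in the same order, were -0.25, -0.69 and -0.64 log2. They were highest in adult ETP, where *Psmb8* and *Psmb10* were lowest, and lower in fetal DN2, as *Psmb9* was. The 14 measured proliferation genes had a mean between -1.27 and -0.48 log2 in the adult ETP arrays and between -0.18 and -0.03 log2 in the fetal ETP arrays, with 5 called higher in fetal ETP and 7 higher in adult DN2 than in adult ETP. The 7 macrophage and granulocyte markers averaged 5.32 log2 in adult ETP (4.62 to 5.75) and 2.38 log2 in fetal ETP (2.20 to 2.53), with 5 called lower in fetal ETP, and the 6 dendritic cell and class II genes averaged 3.78 and 0.58 log2, with 3 called lower. Of 3 B cell markers *Ighm* was called lower in fetal cells at all 3 stages, of 5 markers of thymic epithelium *Epcam* was called higher in fetal ETP, and none of 3 natural killer markers was called between ages. Between stages *Epcam* was also called higher in DN2 and in DN3 than in ETP, in adult and in fetal cells. The part of these gene groups and of the cells they mark in the proteasome results was not tested.

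**Figure D5:**
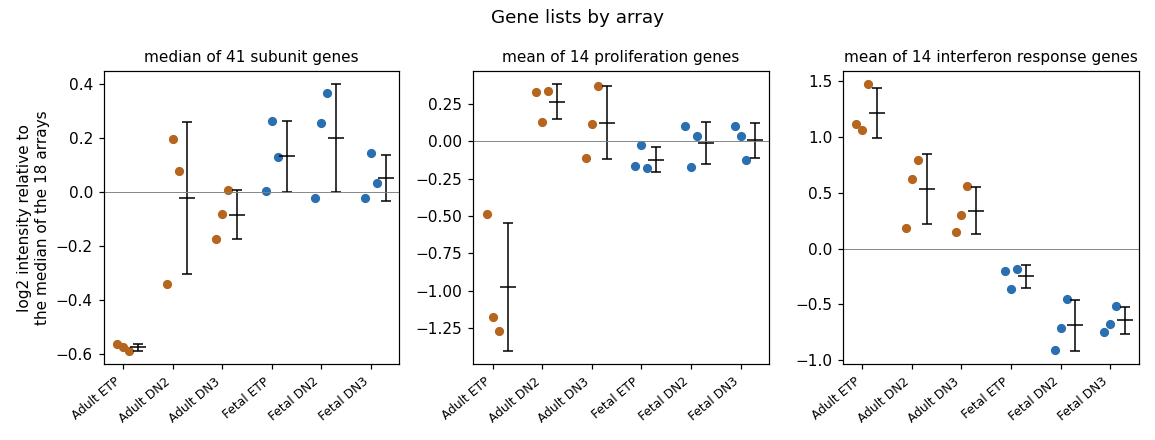
Median of the 41 subunit genes and means of the 14 proliferation genes and the 14 interferon response genes (centred log2, vertical axis) in each array by group. The adult ETP arrays are lowest for the subunit genes (-0.59 to -0.56 log2) and for proliferation (-1.27 to -0.48 log2) and highest for the interferon response (group mean 1.22 log2).

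The fetal arrays numbered 1, in which *Hbb-y* was lower than in the others of their group, were also the lowest of their group in many proteasome genes at ETP and DN2. Replicate 1 was the lowest array for 22 of the 41 subunit genes in fetal ETP (53.7%, against 14.6% of all probe sets), for 33 in fetal DN2 (80.5%, against 20.9%) and for 22 in fetal DN3 (53.7%, against 60.4%). The subunit median was 0.00, -0.02 and -0.02 log2 in these arrays of fetal ETP, DN2 and DN3, and 0.03 to 0.37 log2 in those numbered 2 and 3. The mean of the 4 measured erythroid markers was 0.04, 0.02 and -0.06 log2 in the fetal arrays numbered 1 and between 1.00 and 2.43 log2 in the others. The part of erythroid RNA in the fetal proteasome values was not tested. With the arrays numbered 2 and 3 alone, a fit chosen after seeing the data, 0 of the 76 probe sets were called between ages at DN3, where *Psma8* differed by 2.74 log2 (limma adjusted p = 0.0569) and *Psme4* by 1.10 and 1.05 log2 (adjusted p = 0.0566 and 0.0864).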

How the data were processed

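RNA of 18 sorted samples in 6 groups of 3 was hybridised to Affymetrix mouse arrays. The authors made log2 values with GCRMA (processing notes of the submitters, no version given) and deposited them centred on the median of each probe set over the 18 arrays, so that levels and a filter on intensity could not be had. Base 2 follows from the widest span, 12.95. The number of arrays limits the precision, and the weights that limma estimated for them ranged from 0.142 (adult DN2 replicate 1) to 8.87 (fetal DN3 replicate 2). All table columns were mapped (0 not mapped).

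The groups came from the labels. limma 3.58.1 (R 4.3.3) was fitted to 22626 probe sets with one mean per group and no trend. p-values were adjusted by Benjamini and Hochberg over all of them, and the limits were 0.05 and 1.8-fold. The fit had 12 residual and 0.971 prior degrees of freedom and a median moderated SD of 0.229 log2. It was tested on simulated data in which the arrays were independent and of equal spread. That test therefore does not cover arrays that deviate together or differ in weight, as the real ones did. Probe sets were named from the platform annotation (20380 with one gene, 691 with several, 1555 with none). Named are *Psmb8*, *Psmb9*, *Psmb10*, their constitutive counterparts, *Psme1*, and the 8 further genes called in most comparisons. Other called genes are given by their difference. The members and gene lists were chosen with earlier results of these data known. Summaries used Python 3.11.15, numpy 2.4.6, pandas 2.3.3 and matplotlib 3.10.9.

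The labels number the arrays of each group 1 to 3. Whether a number marks arrays that deviate together from their group means was checked by correlation, with 0.1 as the limit for pairing. Every fetal pair passed (r = 0.312 to 0.597), as did adult DN2 paired with adult DN3 (0.119 to 0.424) and with fetal groups (0.125 to 0.374). Adult ETP was paired with no group and adult DN3 with no fetal group. Alternatives were the fold limit, centring each array, array weights, the number as a replicate block, a fit on both groups alone, the mean of the probe sets of a gene, and leaving out arrays.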

Additional observations from a re-analysis of the deposited data

Results flagged for a closer look

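A probe set of *Psma6*, an alpha ring gene, changed its fetal minus adult difference from ETP to DN3 by -0.57 log2 (-0.573; limma interaction, adjusted p = 0.0407), which was under 1.8-fold and rests on 1 of 4 probe sets of the gene. The *Psmc6* probe set marked for cross-hybridization changed by -0.84 log2 (-0.839, adjusted p = 0.0433). Both were higher in fetal than in adult ETP. They were 2 of the 76 probe sets (2.63%), against 2.64% of all probe sets that passed the adjusted p. With replicate 1 as the only adult DN3 array they were -0.40 and -0.79 log2 (adjusted p = 0.285 and 0.161). Without a single array *Psma6* did not pass when it was any fetal DN3 array or replicate 2 or 3 of adult ETP, adult DN3, fetal ETP or fetal DN2 (adjusted p up to 0.111). *Psmc6* did not pass when it was any array of adult DN3, fetal ETP or fetal DN2, or replicate 1 or 3 of adult ETP or fetal DN3 (up to 0.114).

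For other probe sets the arrays of both stages did not overlap, with opposite directions in adult and in fetal cells, but the interaction did not pass. They were picked for this pattern, and the share of all probe sets that show it is not given here. Non-overlap at a single age was common. From ETP to DN3, 12% of all probe sets were higher without overlap in adult cells and 19.9% lower in fetal cells. The base subunit gene *Psmd1* differed from ETP to DN3 by 1.02 log2 less in fetal than in adult cells (-1.02, adjusted p = 0.225; -1.28 and 0.246 with replicate 1 as the only adult DN3 array). The alpha ring gene *Psma3* did so by -0.462 log2 from ETP to DN3 (adjusted p = 0.0871; -0.37 and 0.331) and by -0.298 log2 from DN2 to DN3 (adjusted p = 0.713; -0.21 and 0.968). With array weights *Psmd1* and *Psma3* passed from ETP to DN3 (adjusted p = 0.0424 and 0.026).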

How the results depend on the processing

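Of 37 single calls reported, 4 were lost with each array centred on its median, 2 with array weights, 1 with the replicate block (*Psmc6* at DN2), 26 in fits on both groups alone, 9 with the mean of the probe sets of a gene, 13 with the arrays numbered 2 and 3 alone and 23 without some single array. With replicate 1 as the only adult DN3 array 6 of 9 were lost. The last 2 settings with array subsets (numbered 2 and 3 alone, 1 adult DN3 array) were chosen after seeing the data, and fewer arrays enter them. Otherwise the cause of a change was not tested. Calls are counted among the 76 proteasome probe sets. For fetal against adult ETP (14 calls) there were 25 without a fold limit, 23 at 1.5-fold, 7 on both groups alone and 8 to 17 without 1 array. At DN2 (6) there were 10 with array weights, 1 on both groups alone and 4 to 7 without 1 array. At DN3 (3) there were 0 with the arrays numbered 2 and 3 and 0 to 3 without 1 array. For adult DN2 against ETP (8) there were 0 on both groups alone and 5 with the gene mean. For adult DN3 against ETP (6) there were 14 without a fold limit and at 1.5-fold, 10 with array weights, 1 on both groups alone, 2 with the gene mean and 2 to 10 without 1 array. For adult DN3 against DN2 (0) there was 1 with replicate 1 as the only DN3 array. For fetal DN3 against DN2 (0) there was 1 without a fold limit, at 1.5-fold and with array weights, and against ETP (0) 1, 1 and 2. Changes of the age difference between stages (0 calls) became 2 without a fold limit, 1 at 1.5-fold, 7 with array weights, 1 with the replicate block, 2 with the arrays numbered 2 and 3 and 0 to 5 without 1 array (the 5 without adult ETP replicate 1). The F test (22) gave 25 with the replicate block, and 27 by the methods' one-way test without adjustment. For fetal against adult cells the fit with the replicate block gave 18, 7 and 3 calls at ETP, DN2 and DN3. Adult and fetal arrays of the same number did not pass the limit for pairing at ETP or DN3.

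Some small differences between ages, none of them called, turned their sign. *Psmb8* at DN3 was 0.34 log2 (0.343) with array weights, 0.238 with the arrays numbered 2 and 3, and 0.143, 0.0811 and 0.0447 without adult DN3 replicate 1, fetal DN3 replicate 1 or fetal DN3 replicate 3 (-0.168 to 0.143 over all arrays left out). *Psmb10* at DN3 was -0.0441 with adult DN3 replicate 1 alone and -0.0188 without fetal DN3 replicate 2 (to 0.104 without another array). *Psmb9* at ETP was 0.0229 with the arrays numbered 2 and 3. *Psme1* at DN2 was 0.0697 without adult DN2 replicate 2 (-0.263 at the lowest), and at DN3 0.208 with array weights, 0.113 with the arrays numbered 2 and 3 and 0.0664 without adult DN3 replicate 1 (-0.233 at the lowest). A filter at the 20th percentile of intensity was not run because centred values hold no level, and *Psme2* was not run because its probe set names several genes.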
